A study of Mus with 17 samples.

Results

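The 40 genes described here drive or mark the cell division cycle, and they were followed in the livers of mice kept on a western diet or on chow. They were taken as listed: 16 act in G1 and S phase, when a cell commits to division and copies its DNA, and 24 act in G2 and mitosis, when the copied chromosomes are separated. The 40 are a small subset of the 24937 genes with a value in the deposited files, and all 40 were found there by symbol. Whole liver of male C57BL6/JBomTac mice was measured by bulk RNA sequencing in 17 libraries. In the western diet group, 8 mice were fed western diet over 52 weeks with fructose in the drinking water at 42 g/L, which the labels use as a model of advanced fatty liver disease. In the chow group, 9 mice of the same age were fed standard chow with water alone. Every mouse was fasted overnight at the end. Because 1 label field, the source name, carries the western diet tag in all samples, the diet was taken from the treatment field. The labels give no pairing of mice across diets, and each library was taken as 1 mouse, so that p-values measure the spread between libraries.

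Entry into the cycle depends on D-type and E-type cyclins, which relieve the retinoblastoma proteins' hold on E2F factors. E2F factors then switch on the genes for the replication helicase, for nucleotide supply and for the sliding clamp. Later, cyclin A and cyclin B activate CDK1, FOXM1 switches on mitotic genes, spindle motors and kinases line up and part the chromosomes, and the anaphase promoting complex ends mitosis by marking cyclin B and securin for destruction. In the adult liver most hepatocytes rest outside the cycle and re-enter it after loss of tissue. Immune, stellate and bile duct cells of the liver can divide as well. In RNA from whole tissue, a change in the number of cells of a type and a change in RNA per cell cannot be told apart.

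Library totals were 6468850 ± 1756836 expected counts in western diet livers and 6683599 ± 1136419 in chow livers (SD, n = 8 and 9). A gene at 0 counts may still have up to 3, which is between 0.331 and 0.832 CPM (counts scaled to library size), depending on a library's depth, so single values near 1 CPM rest on few reads. All 8 hepatocyte markers were measured in both diets, with a summed level of 8601 to 14204 CPM in western diet livers and 10892 to 14402 CPM in chow livers. Of these, 3 were lower in western diet livers: Alb (log2 difference -0.38, western diet minus chow, adjusted p = 0.0116 in the edgeR test), Hnf4a (-0.39, adjusted p = 0.000285) and Serpina1a (-0.27, adjusted p = 0.0445). Markers of other cell types moved with the diet as well, where 24.8% of all tested genes were higher and 23.6% lower: all 8 macrophage markers (912 to 1424 CPM summed in western diet livers, against 367 to 626 CPM in chow livers), 7 of 8 stellate cell and fibroblast markers (677 to 1240 CPM in western diet livers, against 427 to 577 CPM in chow livers), 6 of 6 bile duct markers (216 to 566 CPM in western diet livers, against 97.9 to 198 CPM in chow livers) and the 4 tested of 7 measured T and NK cell markers (8.38 to 71.2 CPM in western diet livers, against 4.72 to 15.8 CPM in chow livers) were higher in western diet livers. Cd3e, Cd8a and Nkg7 had chow medians of 1.26, 1.32 and 1.01 CPM, under the level of about 1.5 CPM needed for testing. A gene that passes this filter mainly through western diet libraries is selected for a difference. The T and NK cell count is therefore a description. Of 6 endothelial markers, 2 were higher (Stab2 and Lyve1) and 2 lower (Kdr and Clec4g), with median sums of 462 CPM in western diet livers and 458 CPM in chow livers. Of 7 tested erythroid markers, 2 were lower (Alas2 and Klf1), with sums of 237 to 385 CPM in western diet livers and 264 to 419 CPM in chow livers. The 5 B and plasma cell markers had adjusted p of 0.164 to 0.657 in the edgeR test, with sums of 33.2 to 341 CPM in western diet livers and 14.4 to 213 CPM in chow livers. No listed marker of any of these types was at 0 in every library. The part of these cell types in the results below was not tested. Western diet replicate 5 and chow replicate 2 carried pancreas transcripts, at 4520 and 13866 CPM summed over 8 markers, beside medians of 185 and 204 CPM in their diets.

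Genes of the G2/M group were higher in western diet livers almost throughout, whereas the G1/S group was mixed. Of the 40 members, 35 were abundant enough to be tested, which needed about 1.5 CPM in at least 8 libraries. In the edgeR quasi-likelihood test with Benjamini-Hochberg adjustment over all 13204 genes tested, 26 of the 35 were higher in western diet livers at an adjusted p under 0.05. Among all genes tested, 24.8% were higher at that threshold. By phase, 18 of 20 tested G2/M members and 8 of 15 tested G1/S members were higher. The median log2 difference (western diet minus chow, as throughout) was 1.27 over the tested G2/M members and 0.32 over the tested G1/S members, beside -0.0091 over all genes tested. At a fold change of at least 2, 12 G2/M members and 1 G1/S member were higher, where 8.96% of all tested genes were. No member was lower: edgeR called 0, none had an unadjusted p under 0.05 in that direction, and DESeq2 and limma-voom called 0 as well, while 23.6% of all tested genes were lower. The difference between the phases was not tested.

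These counts carry a limit of the low count filter. All 15 tested G1/S members and 10 of the 20 tested G2/M members passed it in libraries of both diets. However, 10 of the 18 G2/M members called higher passed mainly through western diet libraries, with at most 4 chow libraries over the filter level. Among these, Aurkb and Ube2c had 7 western diet libraries and 1 chow library over it, and Cenpf 7 and 2. A gene that passes mainly through 1 diet is selected for a difference, so these counts are a description. A fit with no filter took in all 40 members. It called 22 of 24 G2/M members and 7 of 16 G1/S members higher and 0 lower, with median log2 differences of 1.36 and 0.37 by phase and 0.013 over its 20211 genes, of which 18.1% were higher. In that fit Aurka and Birc5 were the G2/M members that did not pass.

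**Figure D1:**
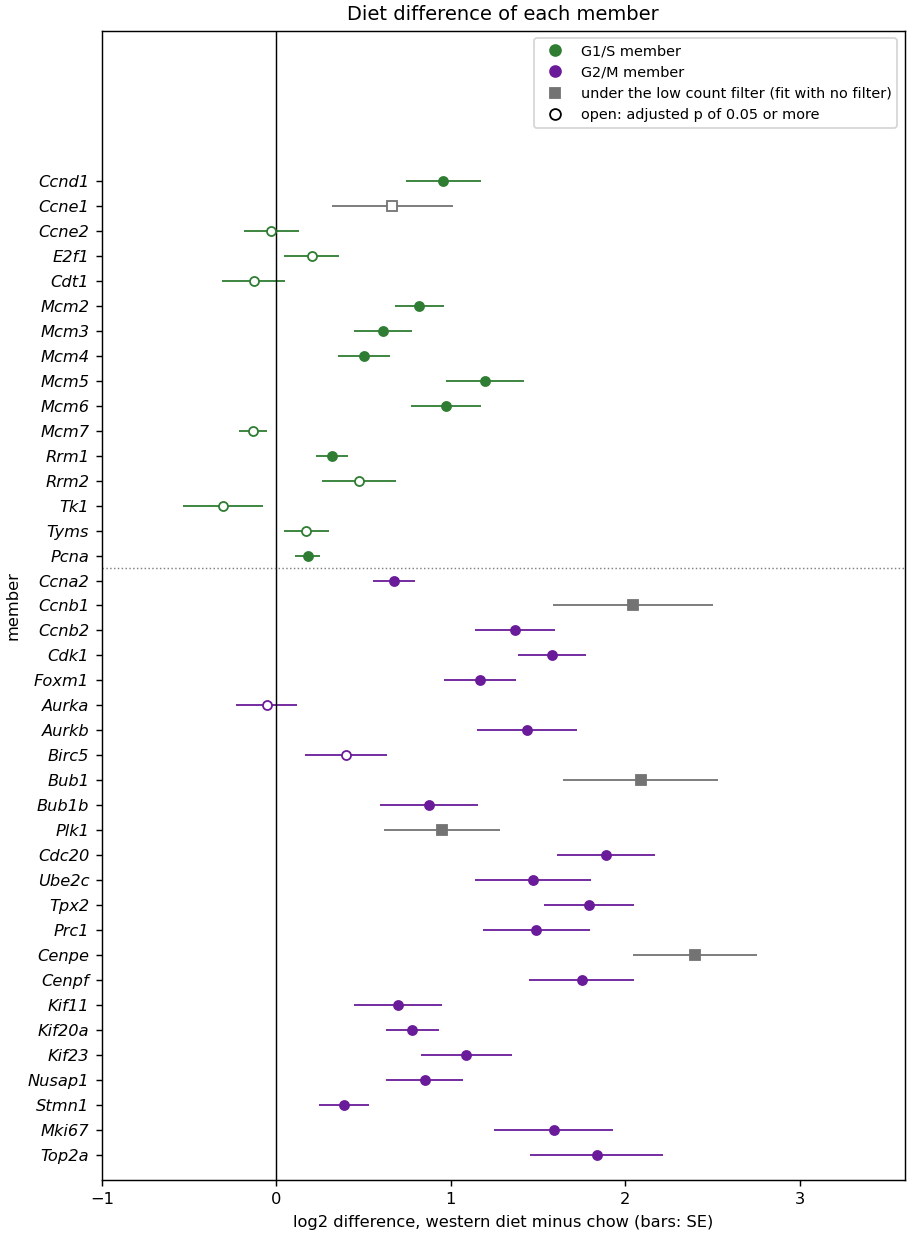
Log2 difference, western diet minus chow, of each of the 40 members with its standard error; circles are tested members by phase, grey squares are the 5 members under the low count filter from the fit with no filter, and open symbols did not pass an adjusted p of 0.05. The 24 G2/M members below the dotted line lie mostly right of 0, Cenpe farthest, while the 16 G1/S members above it spread around and above 0.

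Among the G1 cyclins and E2F1, Ccnd1 alone was higher. Ccnd1, the cyclin D1 gene (chr7:144929931-144939831, mm10), whose protein pairs with CDK4 and CDK6, measured 33.9 CPM at the lowest, 57.3 at the median and 94.1 at the highest in western diet livers, against 22.5, 28.9 and 57.0 CPM in chow livers. Sets of 3 values below are likewise the lowest, median and highest library of a diet. Western diet replicates 2, 5, 7 and 8 lay above every chow library and the others overlapped with chow. The fold change was 1.94 (log2 difference 0.96 ± 0.21 SE, adjusted p = 0.00131). Ccne2, which encodes cyclin E2, a partner of CDK2, spanned 2.60 to 6.86 CPM with a median of 4.95 in western diet livers, against 4.20 to 6.37 CPM with the same median of 4.95 in chow livers. The diets overlapped fully (log2 difference -0.028 ± 0.16 SE, adjusted p = 0.898). The gene shares 5622 bases with Ints8, which was lower in western diet livers (log2 difference -0.32, adjusted p = 0.00387). E2f1, the E2F factor that switches on S phase genes, averaged 7.07 ± 2.20 CPM in western diet livers and 6.11 ± 0.75 CPM in chow livers (adjusted p = 0.301).

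The replicative helicase is a ring of 6 different MCM proteins loaded onto origins with the help of CDT1. Of its 6 genes, 5 were higher in western diet livers, against 24.8% of all tested genes, and Mcm7 was not called. Mcm5 (chr8:75109468-75128439) ran from 4.15 CPM through a median of 6.44 up to 10.1 CPM in western diet livers, against 1.37, 2.96 and 4.68 CPM in chow livers. All western diet libraries but replicate 2 lay above every chow library. With 2.29-fold (log2 difference 1.19 ± 0.22 SE, adjusted p = 0.000209) it was the one G1/S member past a doubling. Mcm6 measured 8.54, 11.7 and 22.6 CPM at the lowest, median and highest in western diet livers, against 4.90, 5.98 and 11.7 CPM in chow livers, a fold change of 1.96 (adjusted p = 0.000501). The highest chow value is replicate 8, and 4 of 8 western diet libraries lay above it. Mcm2 gave 8.92, 10.7 and 14.4 CPM in western diet livers, against 4.62, 6.69 and 9.06 CPM in chow livers (1.77-fold, adjusted p = 8.56e-05). For Mcm2, 6 of the 8 western diet libraries lay above all of chow.

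Smaller differences were seen for Mcm3 and Mcm4. Mcm3 was at 6.80, 12.1 and 17.1 CPM in western diet livers, against 5.65, 8.26 and 9.37 CPM in chow livers (1.53-fold, adjusted p = 0.00484). Mcm4 was at 6.24, 11.2 and 16.7 CPM in western diet livers, against 5.92, 7.81 and 10.7 CPM in chow livers (1.42-fold, adjusted p = 0.00938). In both genes the low western diet libraries fell inside the chow range. Mcm7 (chr5:138164583-138172111) stayed at 18.0, 23.8 and 25.8 CPM in western diet livers, against 22.7, 24.9 and 30.1 CPM in chow livers, with overlap. The difference did not pass the test (log2 difference -0.14 ± 0.081 SE, adjusted p = 0.175). As a share of the summed CPM of the 6 helicase genes, Mcm7 made up 30.5 ± 4.4% in western diet livers and 44.6 ± 3.9% in chow livers. Mcm7 shares 91 bases at one end with Ap4m1, a gene that was lower (14.6 ± 2.3 CPM in western diet livers, against 18.3 ± 2.2 CPM in chow livers, adjusted p = 0.00775). Cdt1, the loading factor, spanned 4.44 to 10.1 CPM with a median of 7.70 in western diet livers, against 3.86 to 11.5 CPM with a median of 7.92 in chow livers (log2 difference -0.13 ± 0.18 SE, adjusted p = 0.576).

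The genes of nucleotide supply and the replication fork moved little. Rrm1, the large subunit of ribonucleotide reductase, measured 17.5, 21.6 and 26.0 CPM in western diet livers, against 15.5, 17.1 and 21.5 CPM in chow livers (1.25-fold, adjusted p = 0.00690). Of the western diet libraries, 4 were above all of chow. Rrm2, the small subunit that is made anew in S phase, measured 4.28, 8.27 and 14.2 CPM in western diet livers, against 4.07, 6.37 and 9.06 CPM in chow livers. It missed the threshold (log2 difference 0.47 ± 0.21 SE, adjusted p = 0.0722). It passed only without western diet replicate 3 (adjusted p = 0.0210), without chow replicate 1 (0.0395) or with scaling by library size alone (0.0295). Over the 17 edgeR fits that each left out 1 library, its log2 difference spanned 0.33 to 0.57 and its adjusted p reached 0.196. Pcna, the sliding clamp of the replication fork, measured 35.5, 41.0 and 50.1 CPM in western diet livers, against 29.8, 35.7 and 39.9 CPM in chow livers (1.13-fold, adjusted p = 0.0464). That call was lost when any one of 11 libraries was left out, most when western diet replicate 5 was (adjusted p = 0.108). It was also lost in 6 of 10 other settings, DESeq2 and the fit with no filter among them. Tyms, thymidylate synthase, averaged 8.60 ± 1.33 CPM in western diet livers and 7.67 ± 1.43 CPM in chow livers (adjusted p = 0.289).

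Tk1, the cytosolic thymidine kinase of S phase (chr11:117815519-117826087), had the lowest log2 difference of the 35 tested members. It measured 11.8, 22.2 and 27.4 CPM in western diet livers, against 15.6, 22.5 and 43.7 CPM in chow livers (log2 difference -0.31 ± 0.23 SE, adjusted p = 0.280). Chow replicates 4, 5, 7 and 9 held 31.5, 39.4, 39.7 and 43.7 CPM, above every western diet library, and the other 5 chow libraries held 15.6 to 22.5 CPM. Tk1 shares 585 bases with Afmid, a more strongly counted gene. Afmid measured 191, 253, 211 and 251 CPM in the same 4 chow libraries and 107 to 167 CPM in the other 5. Western diet replicate 4, lowest in Tk1 at 11.8 CPM, was also lowest in Afmid at 72.5 CPM. Whether reads were assigned by strand is not given in the sources used here, so Tk1 and Afmid reads may not be fully separated.

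**Figure D2:**
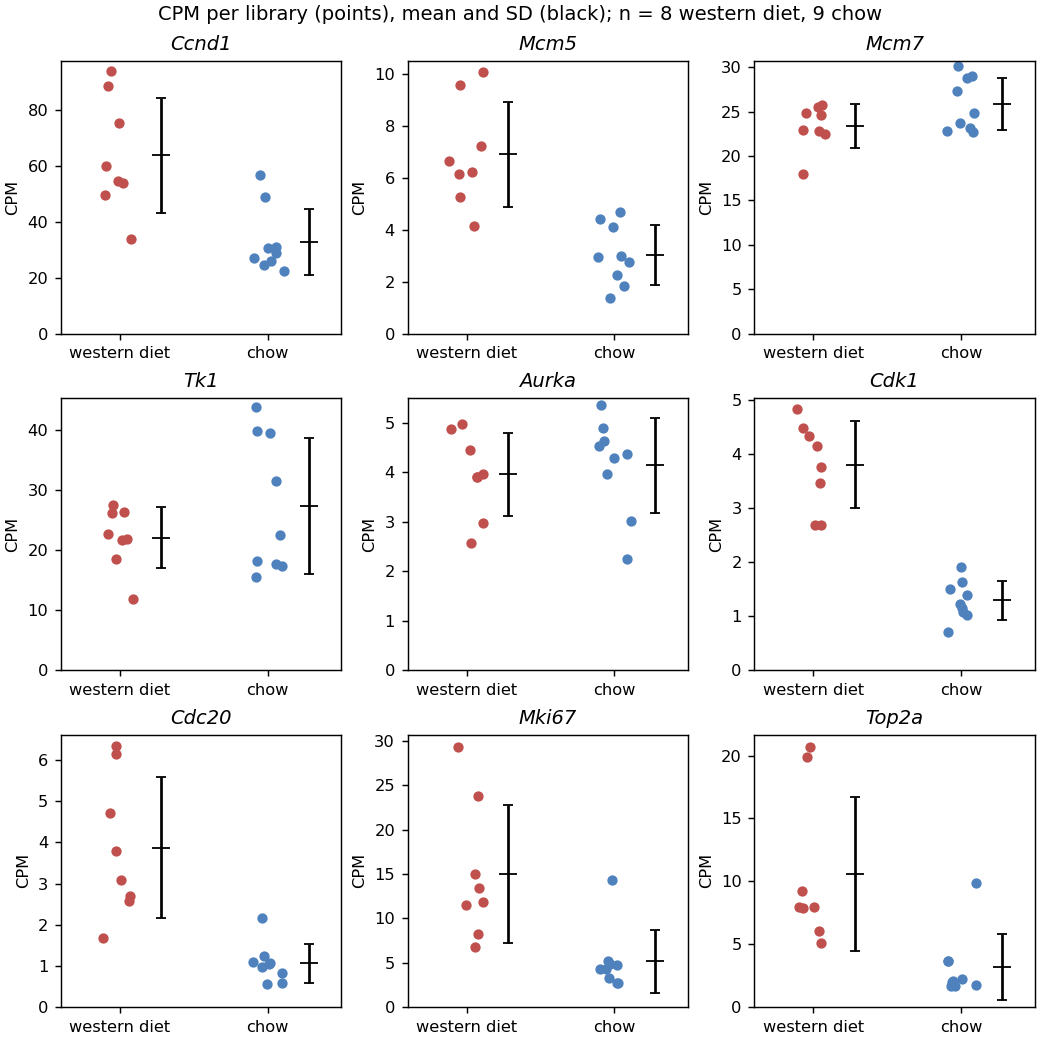
CPM of 9 members in each library (points) with the mean and SD of each diet (black), western diet left and chow right in each panel, every axis starting at 0. Cdk1 shows no overlap between diets, Ccnd1, Mcm5, Cdc20, Mki67 and Top2a are higher in western diet livers with overlap, and the 4 high chow values of Tk1 and the overlapping values of Mcm7 and Aurka are seen.

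The core mitotic genes Cdk1, Ccnb2, Foxm1 and Ccna2 were called higher in western diet livers, where 24.8% of all tested genes were. All but Ccna2 passed the low count filter mainly through western diet libraries. In the fit with no filter all 5 genes of the role, Ccnb1 included, were higher, where 18.1% of all genes were. Cdk1, the kinase that starts mitosis (chr10:69335146-69352912), measured 2.69 CPM at the lowest, 3.95 at the median and 4.84 at the highest in western diet livers, against 0.715, 1.22 and 1.91 CPM in chow livers. All 8 western diet libraries were above all 9 chow libraries, as in 7.01% of all genes tested. The fold change was 2.98 (log2 difference 1.58 ± 0.20 SE, adjusted p = 2.27e-06), with 216 reads counted over the western diet libraries and 74 over the chow libraries. Ccnb2, a cyclin B that activates CDK1, measured 1.73, 2.67 and 4.60 CPM in western diet livers, against 0.551, 1.10 and 1.73 CPM in chow livers (2.58-fold, adjusted p = 7.06e-05). The lowest western diet library and the highest chow library of Ccnb2 nearly touched, at 1.732 and 1.730 CPM. Foxm1, the forkhead factor that drives G2/M transcription, measured 1.64, 2.51 and 3.45 CPM in western diet livers, against 0.630, 1.16 and 1.53 CPM in chow livers, with no overlap (2.25-fold, adjusted p = 0.000106). Ccna2, cyclin A2, which acts in S phase as well as in G2, measured 8.05, 9.89 and 12.4 CPM in western diet livers, against 4.98, 6.22 and 8.33 CPM in chow livers (1.60-fold, adjusted p = 0.000159). Ccna2 shares 863 bases with Exosc9, itself slightly higher in western diet livers (log2 difference 0.28, adjusted p = 0.00399).

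The mitotic kinases and the spindle checkpoint divided. The edgeR test called 2 of 4 tested genes higher, against 24.8% of all tested genes. The fit with no filter called 4 of 6, against 18.1% of all genes. Aurkb passed the filter mainly through western diet libraries. Aurkb, the Aurora kinase of the chromosomal passenger complex, measured 0.992, 1.996 and 3.40 CPM in western diet livers, against 0.292, 0.813 and 1.83 CPM in chow livers (2.71-fold, adjusted p = 0.000412), with 5 of 8 western diet libraries above all of chow. Birc5, survivin, which holds AURKB in that complex, measured 1.13, 2.42 and 4.71 CPM in western diet livers, against 1.32, 2.18 and 3.05 CPM in chow livers and was not called (log2 difference 0.40 ± 0.23 SE, adjusted p = 0.169). Bub1b, the checkpoint protein BUBR1, measured 1.86, 3.40 and 6.33 CPM in western diet livers, against 1.04, 1.64 and 3.77 CPM in chow livers (1.83-fold, adjusted p = 0.0140), and 3 western diet libraries lay above all of chow. Aurka, the Aurora kinase of the spindle poles (chr2:172356190-172370886), measured 2.57, 3.94 and 4.98 CPM in western diet livers, against 2.24, 4.38 and 5.35 CPM in chow livers. The diets overlapped fully (log2 difference -0.055 ± 0.17 SE, adjusted p = 0.818), and the sign turned with scaling by library size alone (0.075). Aurka shares 242 bases with Cstf1, at 33.2 ± 2.9 CPM in western diet livers and 37.0 ± 4.9 CPM in chow livers (adjusted p = 0.0979).

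Both genes of anaphase promotion were higher in western diet livers, with the filter (against 24.8% of all tested genes) and without it (against 18.1%). Both passed the filter mainly through western diet libraries. Cdc20 (chr4:118432901-118437343), the activator that brings substrates to the anaphase promoting complex, measured 1.67, 3.43 and 6.33 CPM in western diet livers, against 0.551, 1.04 and 2.15 CPM in chow livers. Its fold change of 3.70 was the largest of the tested members (log2 difference 1.89 ± 0.28 SE, adjusted p = 1.79e-05). Western diet replicate 3 alone fell inside the chow range, whose top value is chow replicate 4. Cdc20 shares 53 bases with Elovl1, which measured 55.6 ± 3.6 CPM in western diet livers and 41.1 ± 4.0 CPM in chow livers. Elovl1 was itself higher in western diet livers (log2 difference 0.43, adjusted p = 1.56e-05). Ube2c, the ubiquitin-conjugating enzyme of that complex, measured 0.930, 2.35 and 4.50 CPM in western diet livers, against 0.179, 0.856 and 2.34 CPM in chow livers (2.77-fold, adjusted p = 0.00114).

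The 8 tested genes of the spindle and its motors were called higher, against 24.8% of all tested genes. However, Tpx2, Prc1, Cenpf and Kif23 passed the low count filter mainly through western diet libraries. In the fit with no filter, in which 18.1% of all genes were higher, all 9 genes of the role were higher. Tpx2, which activates AURKA on the spindle and seeds microtubules, measured 1.54, 3.32 and 5.55 CPM in western diet livers, against 0.622, 0.935 and 1.502 CPM in chow livers. All its western diet libraries lay above all of chow, as in 7.01% of all genes tested (3.46-fold, log2 difference 1.79 ± 0.26 SE, adjusted p = 1.28e-05). The gap was narrow: the lowest western diet CPM rested on 12 counts and the highest chow CPM on 11. Cenpf, a kinetochore protein of G2 and mitosis, measured 1.21, 3.35 and 5.86 CPM in western diet livers, against 0.467, 0.976 and 1.83 CPM in chow livers (3.36-fold, adjusted p = 8.59e-05). Prc1, which bundles the microtubules of the midzone, measured 1.58, 3.23 and 7.90 CPM in western diet livers, against 0.622, 1.02 and 2.24 CPM in chow livers (2.81-fold, adjusted p = 0.000499). In Cenpf and Prc1, 7 of 8 western diet libraries were above all of chow. Prc1 lies across 21669 bases of Rccd1, which did not pass the test (log2 difference 0.25, adjusted p = 0.258). Kif23, a motor of cytokinesis, measured 1.60, 2.70 and 3.91 CPM in western diet livers, against 0.472, 1.39 and 2.03 CPM in chow livers (2.13-fold, adjusted p = 0.00180).

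The other spindle genes differed less than a doubling. Nusap1, a microtubule stabiliser, measured 2.42, 2.98 and 5.08 CPM in western diet livers, against 1.15, 2.05 and 3.36 CPM in chow livers (1.80-fold, adjusted p = 0.00337). Kif20a, a motor of the midzone, measured 6.60, 8.72 and 11.1 CPM in western diet livers, against 3.19, 4.82 and 6.997 CPM in chow livers (1.72-fold, adjusted p = 0.000309). For Kif20a 7 of 8 western diet libraries were above chow. The gene shares 4930 bases with Cdc23, which was higher by a log2 difference of 0.21 (adjusted p = 0.0397). Kif11, the motor that pushes the spindle poles apart, measured 2.13, 3.80 and 8.06 CPM in western diet livers, against 1.98, 2.69 and 4.53 CPM in chow livers (1.62-fold, adjusted p = 0.0281). Its call was lost without western diet replicate 5 (adjusted p = 0.0754), western diet replicate 7 (0.0835) or chow replicate 6 (0.0521). Stmn1, stathmin, a microtubule destabiliser not limited to dividing cells, measured 6.60, 8.37 and 11.1 CPM in western diet livers, against 4.62, 6.61 and 9.43 CPM in chow livers (1.31-fold, adjusted p = 0.0294). Leaving out any one of 6 libraries ended that call, with an adjusted p of up to 0.0616 (western diet replicate 7); the others were western diet replicates 1 and 5 and chow replicates 4, 7 and 9.

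Mki67 and Top2a, the most used proliferation markers, were among the most variable members. Mki67 (chr7:135689784-135716450), which coats mitotic chromosomes, measured 6.73, 12.6 and 29.4 CPM in western diet livers, against 2.68, 4.28 and 14.4 CPM in chow livers. Top2a (chr11:98992947-99024199), the topoisomerase that untangles sister chromatids, measured 5.10, 7.97 and 20.7 CPM in western diet livers, against 1.64, 2.06 and 9.87 CPM in chow livers. In both genes western diet replicates 5 and 7 were far above the other western diet libraries, and chow replicate 8 was far above the other chow libraries. With all libraries kept, 3 of 8 western diet libraries lay above all of chow for Mki67 and 2 of 8 for Top2a. Without chow replicate 8 the remaining 8 chow values reached 5.20 CPM for Mki67 and 3.67 CPM for Top2a, below every western diet library. That library was set aside after its values were seen. The share of all genes that separate without it was not computed, so this is a description. The fold change of Mki67 was 3.01 (log2 difference 1.59 ± 0.34 SE, adjusted p = 0.000877). Over 17 fits that each left out 1 library, its log2 difference spanned 1.37 to 1.92, highest without chow replicate 8. The fold change of Top2a was 3.57 (log2 difference 1.84 ± 0.38 SE, adjusted p = 0.000667). Over the same fits its log2 difference spanned 1.63 to 2.24, highest without chow replicate 8.

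The 5 members under the low count filter are given by raw counts, which come in steps of 0.5. Cenpe, a kinetochore motor (chr3:135212563-135273540), had 5, 20.5 and 62.5 counts at the lowest, median and highest in western diet livers, against 0, 4 and 7.5 counts in chow livers. The diets did not overlap in CPM, though their ranges of raw counts did. In the fit with no filter the fold change was 5.27 (adjusted p = 1.25e-05). The mitotic cyclin Ccnb1 had 1.5, 8 and 34.5 counts in western diet livers, against 0, 2 and 4 in chow livers (4.12-fold in that fit, adjusted p = 0.00118). Bub1, a checkpoint kinase, had 1, 6.25 and 25.5 counts in western diet livers, against 0, 1.5 and 4.5 in chow livers (4.25-fold, adjusted p = 0.000691). Over all libraries Cenpe summed to 225.5 counts in western diet livers and 40.5 in chow livers, Ccnb1 to 80.5 in western diet livers and 18 in chow livers, and Bub1 to 74 in western diet livers and 16.5 in chow livers. In all 3 genes western diet replicate 7 held the most counts and 1 chow library held 0, which allows up to 3 counts. Plk1, polo-like kinase 1, had 2, 13.75 and 28.5 counts in western diet livers, against 3, 7 and 8.5 in chow livers (1.93-fold, adjusted p = 0.0296). Ccne1, cyclin E1, had 4, 8.25 and 20 counts in western diet livers, against 1, 5.5 and 11 in chow livers, and was not called (log2 difference 0.66 ± 0.35 SE, adjusted p = 0.149). DESeq2, which also fitted all 5, called the same 4 genes, and 3797 of all its 17070 tested genes were higher.

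**Figure D3:**
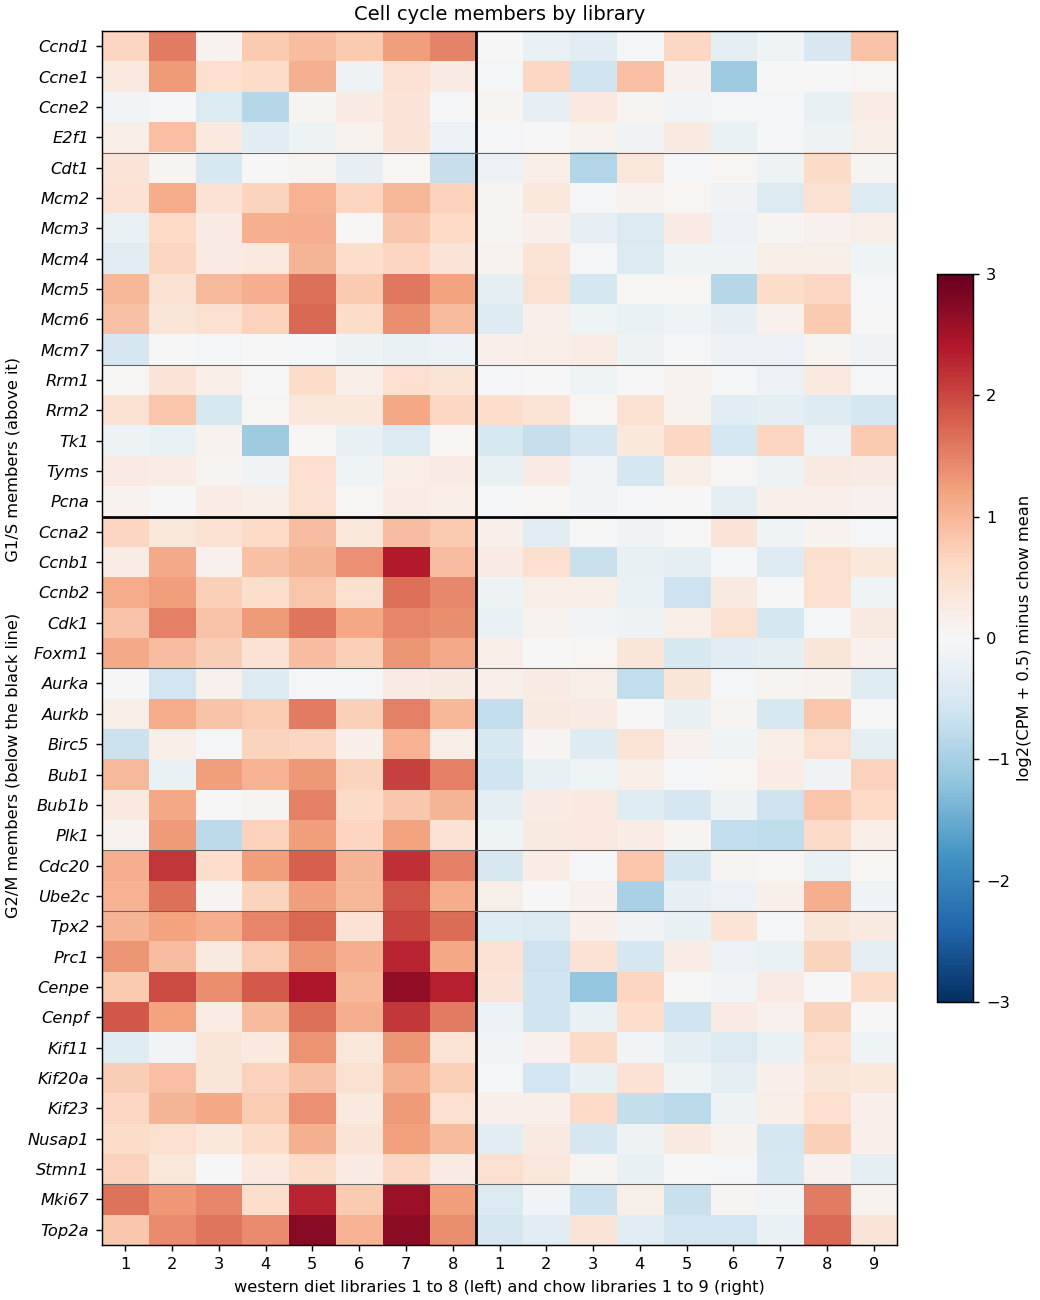
Each cell is the log2(CPM + 0.5) of 1 member in 1 library minus the mean of that member over the 9 chow libraries, with members grouped by role and G1/S above the black line. The western diet columns on the left are red over most G2/M members, most of all in replicates 5 and 7, and among the chow columns replicate 8 is red for Mki67, Top2a and Ube2c.

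The level of each phase was also summed over its members in each library. The 24 G2/M members summed to 110.7 ± 34.0 CPM in western diet livers (81.5 to 175 CPM) and 53.2 ± 11.8 CPM in chow livers (45.0 to 83.7 CPM), 2.08-fold. For this sum 7 of 8 western diet libraries were above all 9 chow libraries. The 16 G1/S members summed to 264.5 ± 37.4 CPM in western diet livers (222 to 307 CPM) and 206.1 ± 23.8 CPM in chow livers (171 to 246 CPM), 1.28-fold, and 4 of 8 western diet libraries were above all of chow. The ratio of the G2/M sum to the G1/S sum was 0.414 ± 0.084 in western diet livers and 0.261 ± 0.060 in chow livers. Such sums weigh genes by their counts: Ccnd1, Pcna, Mcm7, Tk1 and Rrm1 carry most of the G1/S sum. By role, the mean sum in western diet livers was 3.23-fold higher than in chow livers for anaphase promotion, 3.07-fold for Mki67 with Top2a, 2.01-fold for the mitotic cyclins with Cdk1 and Foxm1, 1.92-fold for spindle and motors and 1.49-fold for kinases and checkpoint. Within G1/S it was 1.71-fold for the cyclins with E2f1, 1.29-fold for licensing and helicase, and 1.07-fold for nucleotide supply and fork.

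The spread within a diet lay in a few libraries that were high across many G2/M members. Among western diet libraries, replicate 7 was the highest in 14 of 24 G2/M members and among the top 3 in 23, and replicate 5 was the highest in 7 and among the top 3 in 20. Replicate 3 was the lowest in 10. Over the 16 G1/S members, replicate 5 was the highest in 7 and replicate 7 in 2. Among chow libraries, replicate 8 was the highest in 12 of 24 G2/M members and in 6 of 16 G1/S members, and its G2/M sum of 83.7 CPM stood above the 45.0 to 53.4 CPM of the other 8. Lymphocyte marker sums were high in western diet replicates 5 and 7 and in chow replicate 8. Western diet replicate 5 had the highest T and NK cell sum (71.2 CPM) and B and plasma cell sum (341 CPM) of its diet. Western diet replicate 7 was next in both (22.8 and 160 CPM), close to replicate 1 in T and NK cells (22.5 CPM). Western diet replicate 3, low in G2/M members, had 152 CPM for B and plasma cells and 16.4 CPM for T and NK cells. Chow replicate 8 had the highest of both in chow (15.8 and 213 CPM). Western diet replicate 7 had the lowest macrophage sum of its diet (912 CPM), and western diet replicates 5 and 7 had the lowest hepatocyte sums (8601 and 8993 CPM). Chow replicate 8 had the highest hepatocyte sum of all (14402 CPM). The part of these cell types in the high libraries was not tested. With both libraries that held pancreas transcripts left out, 15 of 18 tested G2/M members and 7 of 15 tested G1/S members were higher. In that fit 3155 of all 13059 tested genes were higher.

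**Figure D4:**
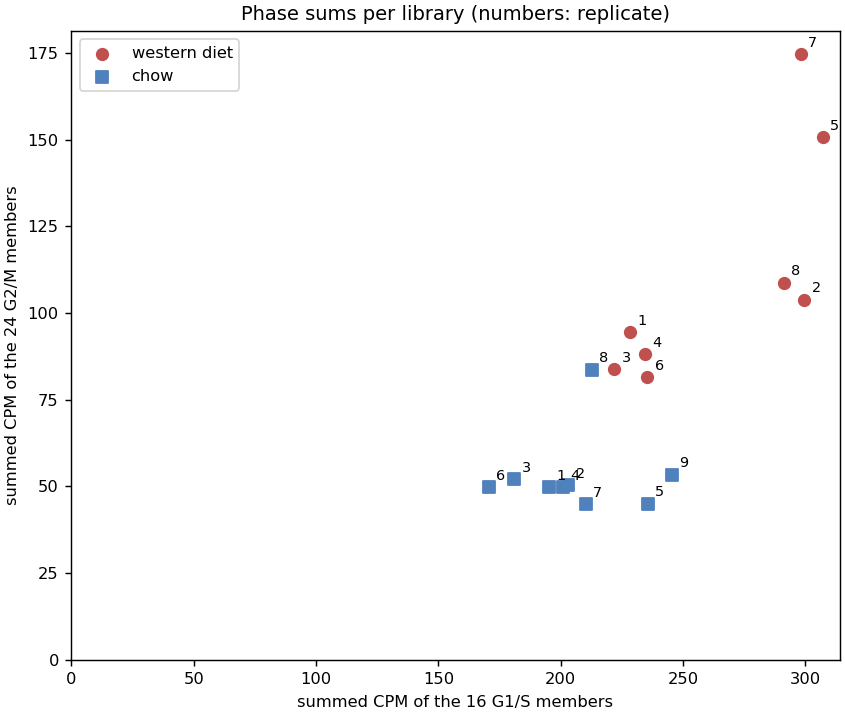
Summed CPM of the 24 G2/M members (vertical) against that of the 16 G1/S members (horizontal) in each library, western diet as circles and chow as squares, numbered by replicate. Western diet replicates 5 and 7 stand at the top right with G2/M sums of 151 and 175 CPM, and chow replicate 8 is the one chow library near the western diet libraries, at 83.7 CPM.

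Over 110 further cell cycle genes in 5 lists, 84 were tested; 26 were higher (31%) and 16 lower (19%) in western diet livers, near the 24.8% and 23.6% of all tested genes. Their median log2 difference was 0.11. With no filter, 36 of the 110 were higher (32.7%) and 16 lower (14.5%), where 18.1% of all genes were higher and 16.3% lower. The limit of the low count filter holds for the tested genes of these lists as well. Among 7 CDK inhibitors, 5 were tested and 2 were higher (40%, against 24.8% of all tested genes). Cdkn2c, the inhibitor p18 of CDK4 and CDK6, measured 24.5, 27.5 and 31.9 CPM in western diet livers, against 5.51, 6.93 and 9.36 CPM in chow livers. This 3.93-fold difference had no overlap (log2 difference 1.97 ± 0.10 SE, adjusted p = 5.55e-11) and was larger than that of any tested member. Members under the filter are outside that comparison: Cenpe, Bub1 and Ccnb1 were 5.27-fold, 4.25-fold and 4.12-fold higher in the fit with no filter. Cdkn1c, the inhibitor p57, averaged 6.95 ± 0.97 CPM in western diet livers and 4.14 ± 0.52 CPM in chow livers, also with no overlap (adjusted p = 4.01e-05). Cdkn1b, the inhibitor p27, averaged 57.1 ± 5.5 CPM in western diet livers and 50.4 ± 6.1 CPM in chow livers and was not called (adjusted p = 0.0649).

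In the retinoblastoma and E2F system, 15 of 17 genes were tested, 2 were higher (13.3%, against 24.8% of all tested genes) and 8 lower (53.3%, against 23.6%). Rbl1, the pocket protein p107, averaged 8.03 ± 2.49 CPM in western diet livers and 3.40 ± 1.75 CPM in chow livers (adjusted p = 0.000145), and E2f2, an E2F activator, averaged 6.06 ± 2.11 CPM in western diet livers and 2.81 ± 0.998 CPM in chow livers (adjusted p = 0.000680). Rbl2, the pocket protein p130 of resting cells, averaged 68.8 ± 5.8 CPM in western diet livers and 89.1 ± 11.4 CPM in chow livers (log2 difference -0.37 ± 0.076 SE, adjusted p = 0.000480). Of 14 other cyclins and kinases, 13 were tested, 6 were higher (46.2%, against 24.8% of all tested genes) and 2 lower (15.4%, against 23.6%). Ccng1, a cyclin induced by p53, averaged 92.1 ± 9.4 CPM in western diet livers and 66.2 ± 6.6 CPM in chow livers with no overlap (adjusted p = 1.67e-05), and Cdc25b, a phosphatase that activates CDK1, averaged 5.77 ± 1.94 CPM in western diet livers and 2.61 ± 1.12 CPM in chow livers (adjusted p = 0.00144). Cdk2, the kinase partner of the E cyclins, was lower in every western diet library than in any chow library (20.6 ± 0.9 CPM in western diet livers, against 27.5 ± 3.2 CPM in chow livers, adjusted p = 0.000108).

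Of 38 further replication genes, 33 were tested, and 7 were higher (21.2%) and 4 lower (12.1%), no more than the 24.8% and 23.6% of all tested genes. In the fit with no filter, 6 of the 38 were higher (15.8%, against 18.1% of all genes) and 4 lower (10.5%, against 16.3%). Gins2, a subunit of the active helicase, averaged 1.98 ± 0.55 CPM in western diet livers and 0.810 ± 0.287 CPM in chow livers with no overlap (adjusted p = 0.000301 in the edgeR test). Its highest chow library held 1.23 CPM, under the filter level of about 1.5 CPM, so this difference carries the limit of the filter. Rpa1, which binds single-stranded DNA, averaged 52.7 ± 4.8 CPM in western diet livers and 44.3 ± 3.5 CPM in chow livers (adjusted p = 0.00309). Mcm10, a helicase activator outside the ring, averaged 61.9 ± 24 CPM in western diet livers and 128 ± 24 CPM in chow livers, a log2 difference of -1.05 ± 0.19 SE (adjusted p = 0.000195). Of 34 further mitosis genes, 18 were tested, 9 were higher (50%, against 24.8% of all tested genes) and 2 lower (11.1%, against 23.6%). The filter left out 16 of these genes; with no filter, 21 of the 34 were higher (61.8%, against 18.1% of all genes) and 2 lower (5.88%, against 16.3%). Incenp, the scaffold of the passenger complex with AURKB and survivin, averaged 7.40 ± 0.77 CPM in western diet livers and 3.83 ± 0.96 CPM in chow livers with no overlap (adjusted p = 2.20e-05). Both genes that were lower encode kinetochore proteins: Zwint averaged 97.3 ± 7.9 CPM in western diet livers and 134 ± 12.9 CPM in chow livers (adjusted p = 1.45e-05), and Spc25 averaged 8.05 ± 1.5 CPM in western diet livers and 15.9 ± 4.2 CPM in chow livers (adjusted p = 2.48e-05). In each of them every western diet library was below every chow library, as in 5.03% of all genes tested.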

How the data were processed

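Bulk RNA sequencing of whole liver was analysed from 17 libraries, 8 of western diet and 9 of chow. The authors deposited unscaled expected counts per gene, in steps of 0.5, with 29.4% to 33.7% of a library's values not whole. The submitters' processing notes name mm10, STAR 2.4.1c, HOMER, FastQC and MultiQC. Whether reads were counted by strand, and with which annotation, is not given in the sources used here, so overlapping genes and gene copies can share reads: in the RefSeq gene table of GRCm38.p6 (mm10), which holds all 40 members, 15 overlap another gene, and Tyms, Pcna, Ccnb1, Ccnb2 and Stmn1 have a named copy.

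The files held 24940 genes, of which 3 had no value. Counts were rounded, and filterByExpr with a design of diet kept 13204 genes. Tests were two-sided, with edgeR 4.0.16 in R 4.3.3 (TMM, glmQLFit with robust estimation, glmQLFTest, prior count 0.125) and Benjamini-Hochberg adjustment at 0.05. CPM use TMM-scaled library sizes, are not divided by gene length and so are compared between diets, not between genes. The biological coefficient of variation was 19.0%. The main edgeR fit was first tested on simulated counts with known changes and the same dispersion for every gene. The other settings were not tested in this way. The 40 members, their phases and the lists were chosen with earlier results of these data known. Members past the threshold and, in each role, those with the largest and smallest absolute difference are given by lowest, median and highest CPM, and up to 3 genes of smallest p are named from each other list. Alternatives were RLE factors, library size alone, DESeq2 1.42.0, limma-voom (limma 3.58.1), no filter, a filter of 1 CPM in 8 libraries, no robust estimation, doubled counts, 1 surrogate variable (sva 3.50.0), leaving out libraries, and leaving out members of uncertain phase. Within a diet, libraries differed by more than counting noise (chi-square per degree of freedom of at least 3.76 in every pair), and the labels do not say more of their origin. Floors of 3 counts cover counting error only. Plots used Python 3.11.15 and matplotlib 3.10.9.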

Additional observations from a re-analysis of the deposited data

Results flagged for a closer look

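In 84 groups of values (each member and each phase sum in each diet), the gap of the highest or lowest library to the next was set against Dixon's critical value. Chance passes it in about 1 group in 20 where groups are independent and values normally spread, and 10 groups (11.9%) passed. The groups share the same libraries and the G2/M sum includes flagged members, so this share is a description. Chow replicate 8 stood apart in 5 of the 10 groups, always high. It held 14.4 CPM of Mki67, with the other chow libraries at 2.68 to 5.20 CPM, and 9.87 CPM of Top2a, with the others at 1.64 to 3.67 CPM. The same library held 11.7 CPM of Mcm6 (others 4.90 to 7.39 CPM) and 2.34 CPM of Ube2c (others 0.179 to 1.02 CPM). Its G2/M sum was 83.7 CPM, beside 45.0 to 53.4 CPM in the other chow livers.

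Western diet replicate 7 stood apart in Ccnb1, at 3.61 CPM with the others at 0.372 to 1.54 CPM, and in Prc1, at 7.90 CPM with the others at 1.58 to 3.86 CPM. Western diet replicate 5 held 50.1 CPM of Pcna, beside 35.5 to 42.0 CPM in the others of its diet. Western diet replicate 1 was low in Mcm7, at 18.0 CPM with the others at 22.5 to 25.8 CPM. Chow replicate 4 held 2.15 CPM of Cdc20, beside 0.551 to 1.24 CPM in the others.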

How the results depend on the processing

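Over 17 fits that each left out 1 library, 23 to 27 members were called higher (G1/S 7 to 8, G2/M 16 to 19) and 0 lower, and the median log2 differences were 0.28 to 0.36 for G1/S and 1.14 to 1.33 for G2/M. Over 10 other settings, 22 to 29 members were higher and 0 lower, and 11 settings by phase gave 7 to 9 for G1/S and 15 to 22 for G2/M, with medians of 0.26 to 0.45 and 1.20 to 1.40. Of the 26 calls, 23 held in every fit that tested the gene. Stmn1 and Kif11 were lost in at least 1, and Pcna in 11 of the 17 fits and 6 of the 10 other settings. Aurkb and Ube2c were not tested without chow replicate 8, under the filter of that fit. Foxm1 and Ube2c were likewise not tested without western diet replicate 5 and chow replicate 2. The sign of Ccne2 turned with library size alone (0.11) and without western diet replicates 3 (0.021) or 4 (0.057) or chow replicates 3 (0.012) or 9 (0.0024), and that of Aurka with library size alone (0.075) and without western diet replicate 2 (0.020); neither was called in any of these, over the 17 fits they spanned -0.11 to 0.057 and -0.13 to 0.020, and the cause was not tested. Library size alone moved the median of all genes to a log2 difference of 0.12 and the share of calls that were higher to 73.5%, against 51.2% with TMM. No paired analysis was possible because no label ties a western diet mouse to a chow mouse. Depth limits the members under about 1.5 CPM, where a library held as few as 0 counts.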

Other observations

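Cdkn1a, the p53-induced CDK inhibitor p21, did not pass the edgeR test (log2 difference 0.88, adjusted p = 0.287) and was uneven in chow livers: western diet livers held 47.0 to 113 CPM, whereas chow replicates 1 and 2 held 128 and 138 CPM and the other 7 chow libraries 6.05 to 30.0 CPM. This gene was chosen after its values were seen.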
